A study of Homo sapiens with 30 samples.

Results

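The ATP-binding cassette (ABC) transporters were taken as all gene symbols of classes ABCA to ABCG that the files hold, 46 of 25680 symbols, each read from its transcript of highest mean count. They were split by role into 12 pumps of drugs and organic anions, 18 transporters of lipids and sterols, 9 transporters of organelle membranes, 4 proteins without a membrane domain and 3 channel regulators or other members. RNA was sequenced from OPM2 and H929, established lines of human multiple myeloma, a cancer of antibody-secreting plasma cells. The groups were OPM2 with 100 nM dBRD9-A for 24 h, OPM2 with DMSO, H929 with the same dose of dBRD9-A and H929 with DMSO, each with 3 libraries. The solvent DMSO was given for the same time. dBRD9-A is a degrader of BRD9, a bromodomain protein of the chromatin remodelling complex called non-canonical BAF, and the study asked how transcripts respond to it. The labels do not state whether the 3 libraries of a group are separate cultures, so each p-value refers to the spread among libraries, which may be technical.

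ABC proteins bind and hydrolyse ATP in paired nucleotide-binding domains and in most members use that energy to move a substrate across a membrane. Members of the plasma membrane expel drugs, conjugates, sterols and phospholipids, and those of mitochondria, peroxisomes and lysosomes move heme precursors, fatty acyl-CoA, peptides and vitamin B12. The ABCE and ABCF classes have no membrane-spanning part and work on ribosomes or in translation. In myeloma the family is known mostly for ABCB1, ABCC1 and ABCG2, pumps linked to resistance against chemotherapy.

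Promoter windows from 250 bases before to 50 bases after a start site, credited to RefSeq on GRCh38.p14, are shown for a member that rose in both lines, a member that fell in both and a member that fell in OPM2 with a response that differed between the lines. The windows are on the minus strand at chr12:39619754-39620053 for ABCD2, chr7:151227156-151227455 for ABCF2 and chr4:88158810-88159109 for ABCG2. ABCD2 and ABCG2 have further start sites in the same table. Capitals mark the E-box CACGTG and the GC box GGGCGG on either strand.
ABCD2: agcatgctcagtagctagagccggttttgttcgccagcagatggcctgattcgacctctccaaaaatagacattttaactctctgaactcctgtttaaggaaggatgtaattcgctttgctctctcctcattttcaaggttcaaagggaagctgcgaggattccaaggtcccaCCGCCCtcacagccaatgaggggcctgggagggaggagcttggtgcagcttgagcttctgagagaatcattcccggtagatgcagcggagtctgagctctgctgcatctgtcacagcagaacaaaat
ABCF2: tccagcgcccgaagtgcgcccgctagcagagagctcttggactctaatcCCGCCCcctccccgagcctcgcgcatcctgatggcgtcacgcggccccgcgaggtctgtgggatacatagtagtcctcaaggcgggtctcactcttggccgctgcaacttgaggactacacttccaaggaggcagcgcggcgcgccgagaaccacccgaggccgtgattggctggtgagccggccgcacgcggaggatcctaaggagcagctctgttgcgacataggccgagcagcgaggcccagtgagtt
ABCG2: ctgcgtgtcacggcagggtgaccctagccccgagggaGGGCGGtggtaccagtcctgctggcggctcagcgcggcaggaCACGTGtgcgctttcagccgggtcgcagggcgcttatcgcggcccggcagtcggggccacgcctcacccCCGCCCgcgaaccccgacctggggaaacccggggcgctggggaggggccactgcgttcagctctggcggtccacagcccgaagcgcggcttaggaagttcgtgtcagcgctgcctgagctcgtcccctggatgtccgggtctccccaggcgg
The E-box, the core motif bound by MYC and MAX among other factors, began 171 bases before the start in the ABCG2 window shown. It was in neither of the other windows shown. A further ABCG2 window overlaps the one shown and holds the same site, 121 bases before its start. The remaining ABCG2 windows have no E-box. The E-box was found in 7.26% of 35116 promoter windows of all genes. It was in 9 of 53 windows of the 35 family members that matched, where the ABCG2 site counts in both overlapping windows. These windows were those of ABCA1, ABCA9, ABCA12, ABCB6, ABCB9, ABCC10, ABCF1 and ABCG2. The GC box was in 25 of the 53 windows, against 45% of all windows. The spaced direct repeat of AGGTCA known as DR4, a form of the element bound by liver X receptors, was in 7 of 35116 windows and in none of the family. A match is a description of the letters in these windows.

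1 library, OPM2 dBRD9-A replicate 2, was unlike the rest. It held 24524193 counts over 1 transcript per symbol, against 42895389 to 76600945 in the others, and it deviated from its group mates with an SD of 0.864 (log2, 10629 genes), against 0.165 to 0.262 for libraries of the other groups. Across those genes its deviation correlated with the GC content of the transcript (Spearman -0.677), and genes are not independent replicates. Of the 15 tested members with a GC content of at least 50%, replicate 2 was the lowest of its group in 14, with ABCG1, at 4 counts or fewer in that group, as the exception. Of the 14 members under 50% it was the highest in 9, the lowest in 3 and between its mates in 2. The lowest deviations were those of ABCB9 (-2.30), ABCB8 and ABCC10, and the highest that of ABCA10 (0.83, log2 CPM). Every comparison was also fitted without this library, and values from that fit stand beside those it moved most. All 8 plasma cell markers were at a mean of at least 1 CPM (counts scaled to library size with TMM factors) in every group. Their sum was lower with dBRD9-A than with DMSO in both lines, without overlap. It was 3821 to 5221 against 5249 to 6036 CPM in OPM2, and 5224 to 5476 against 6126 to 6797 in H929. In OPM2, SLAMF7 averaged 151 CPM with dBRD9-A against 468 with DMSO, MZB1 68.2 against 204 and IRF4 1191 against 1830. The means of XBP1 and CD38 in OPM2 were higher with dBRD9-A. Summed T cell, myeloid, stromal and epithelial markers were higher in H929 with dBRD9-A than with DMSO, at 36.7 to 39.7 against 23.3 to 25.6, 5.08 to 10.5 against 1.55 to 4.10, 1.06 to 2.36 against 0.181 to 0.274 and 14.1 to 23.7 against 8.19 to 11.1 CPM. The sums were carried by CD3E, CSF1R, COL1A1, KRT8 and KRT18, while CD3D, CD14, EPCAM and LYZ were at most 0.185 CPM and FCGR3A, COL1A2, LUM and KRT19 at 0 in both H929 groups. In OPM2 no list other than that of plasma cells summed to more than 1.35 CPM in any library. The part of these markers in the results was not tested.

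**Figure D1:**
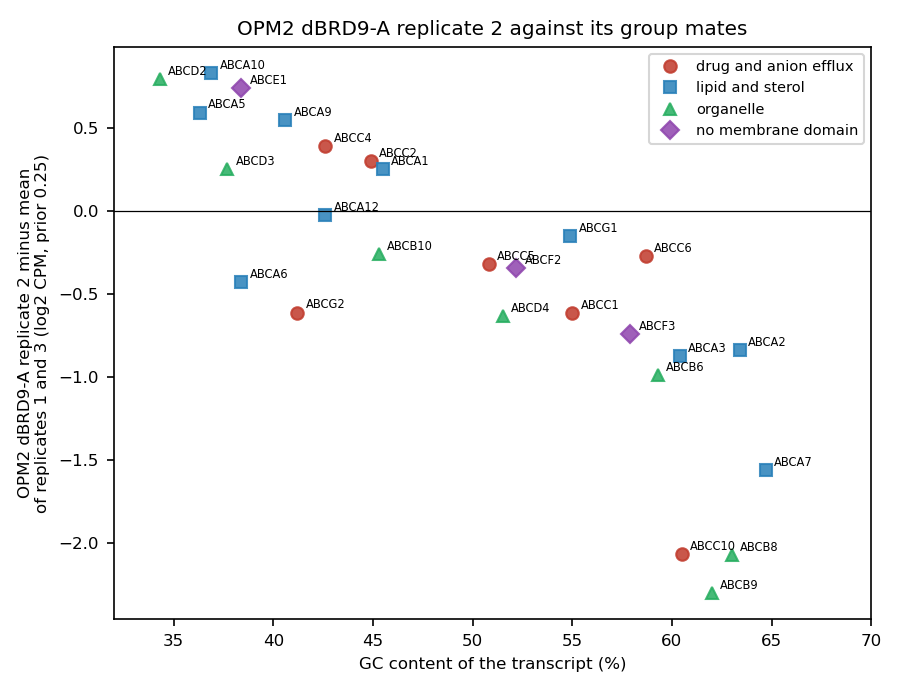
Each point is 1 of 27 tested ABC members, with the GC content of its transcript (%) on the horizontal axis and the log2 CPM of OPM2 dBRD9-A replicate 2 minus the mean of replicates 1 and 3 on the vertical axis, and shapes give the role. The members of at least 50% GC lie below 0, down to -2.30 for ABCB9, and the highest, ABCA10 at 0.83, is among those under 50%.

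The 46 members spanned the whole range of detection. A low-count filter over all genes kept 29 of them among 16408 genes tested, and the other 17 had at most 13 counts in any library. Tested were 7 of the 12 drug and anion pumps, 10 of the 18 lipid transporters, all 9 organelle transporters and 3 of the 4 proteins without a membrane domain. ABCB1, the pump P-glycoprotein, had at most 1 count in each library and 3 counts over all 12. ABCB5, a drug pump related to ABCB1, and ABCC13 had 0 counts in all libraries, which allows up to 0.00431 CPM for each over the 12 libraries, counting error only. ABCC3, which carries bile acids and conjugates, had at most 2 counts, ABCC11 had 0 to 8 and ABCC12 at most 1. Of the lipid transporters, ABCA4 of the retina had at most 1 count, ABCA8 at most 5, ABCA13 at most 2, ABCB4, a phospholipid pump of the liver, at most 6, ABCB11, the bile salt pump, at most 2, ABCG4 at most 13, and the plant sterol pumps ABCG5 and ABCG8 at most 6 and 4. ABCC8 and ABCC9, the sulfonylurea receptors of potassium channels, had at most 2 and 1. At this depth these members had at most 13 counts in any library, which does not show that they are absent.

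ABCF1, a partner of the initiation factor eIF2, was also outside the test, with at most 1 count in any row. It is listed in 14 rows, which are 7 numbered copies of 2 transcripts. Of 153 symbols listed with 7 or 8 numbered copies, 36.6% reached 10 counts in a library, against 68.1% of 24898 symbols without copies. Whether the copies took part in its low count was not tested, and no level of ABCF1 is read from these files. The peptide transporters TAP1 and TAP2, which are ABC proteins under other names, are listed in 16 and 24 rows and are not read either.

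Per length, in the deposited TPM (transcript counts scaled for length and library), ABCE1, which splits ribosomes after translation ends, had the highest mean of the members in every group. It averaged 69.2 ± 18.3 TPM in OPM2 with dBRD9-A, 82.8 ± 4.90 in OPM2 with DMSO, 40.9 ± 8.85 in treated H929 and 62.1 ± 7.74 in H929 with DMSO (SD, n = 3). ABCF2, a soluble ATPase whose yeast relative acts in ribosome assembly, followed with 39.6 ± 0.98 TPM in OPM2 with DMSO and 44.3 ± 7.67 in H929 with DMSO. In treated H929 the ranges of ABCE1 (31.0 to 48.2 TPM) and ABCF2 (25.3 to 32.1 TPM) overlapped. In OPM2 with DMSO the next were ABCB6 at 30.1, ABCB10 at 22.4, ABCD3 at 21.0 and ABCF3 at 19.3 TPM, and the ranges of ABCB10 and ABCD3 overlapped. In H929 with DMSO the order after ABCF2 was ABCB9 at 27.3, ABCF3 at 25.2, ABCB6 at 16.6, ABCA7 at 15.8 and ABCB10 at 13.4 TPM. There the ranges of ABCB9 and ABCF3 overlapped, as did those of ABCB6 with ABCA7 and of ABCA7 with ABCB10. Among the pumps of drugs and anions, ABCC1 led in OPM2 with DMSO at 9.59 TPM, and in H929 with DMSO ABCC1 at 8.14 and ABCC10 at 8.004 TPM had overlapping ranges. Summed TPM of the whole family were 256 ± 23.8 in OPM2 with dBRD9-A, 288 ± 9.09 in OPM2 with DMSO, 277 ± 16.3 in treated H929 and 297 ± 21.4 in H929 with DMSO. In bulk samples, fewer cells that express a gene and less RNA of it per cell cannot be told apart.

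With dBRD9-A, 9 members passed the edgeR quasi-likelihood test (adjusted p under 0.05 over all genes) in at least 1 line. In OPM2, ABCA1 and ABCD2 rose and ABCC1, ABCG2, ABCA2, ABCF2 and ABCB10 fell, 7 of the 29 tested members (24.1%) against a background of 17.4% of all genes tested. The background was 10.1% for higher and 7.34% for lower genes. In H929, ABCG1 and ABCD2 rose and ABCA2, ABCE1, ABCF2 and ABCB10 fell, 6 of 29 (20.7%) against a background of 13.0% (7.33% higher, 5.67% lower). These shares are near the backgrounds and are no result about the family as a whole. The median log2 fold change of the tested members was -0.14 in OPM2, against 0.03 over all genes, and -0.16 in H929, against -0.0019. The medians without OPM2 dBRD9-A replicate 2 were -0.0098 in OPM2, against 0.0023 over all genes, and -0.13 in H929, against 0.03. ABCD2, ABCA2, ABCF2 and ABCB10 passed in both lines and in the same direction. The share of such calls over all genes was not counted, so this number is no result about the family. Without OPM2 dBRD9-A replicate 2, 11 members passed in OPM2 (5 higher and 6 lower, background 31.7%) and 13 in H929 (6 higher and 7 lower, background 35.7%). The H929 libraries are the same in that fit, while the spread per gene, the scaling and the filter are shared by all groups. Which of these moved the H929 count was not tested. Here and in what follows, ± gives the SE of a log2 fold change and the SD of a level.

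**Figure D2:**
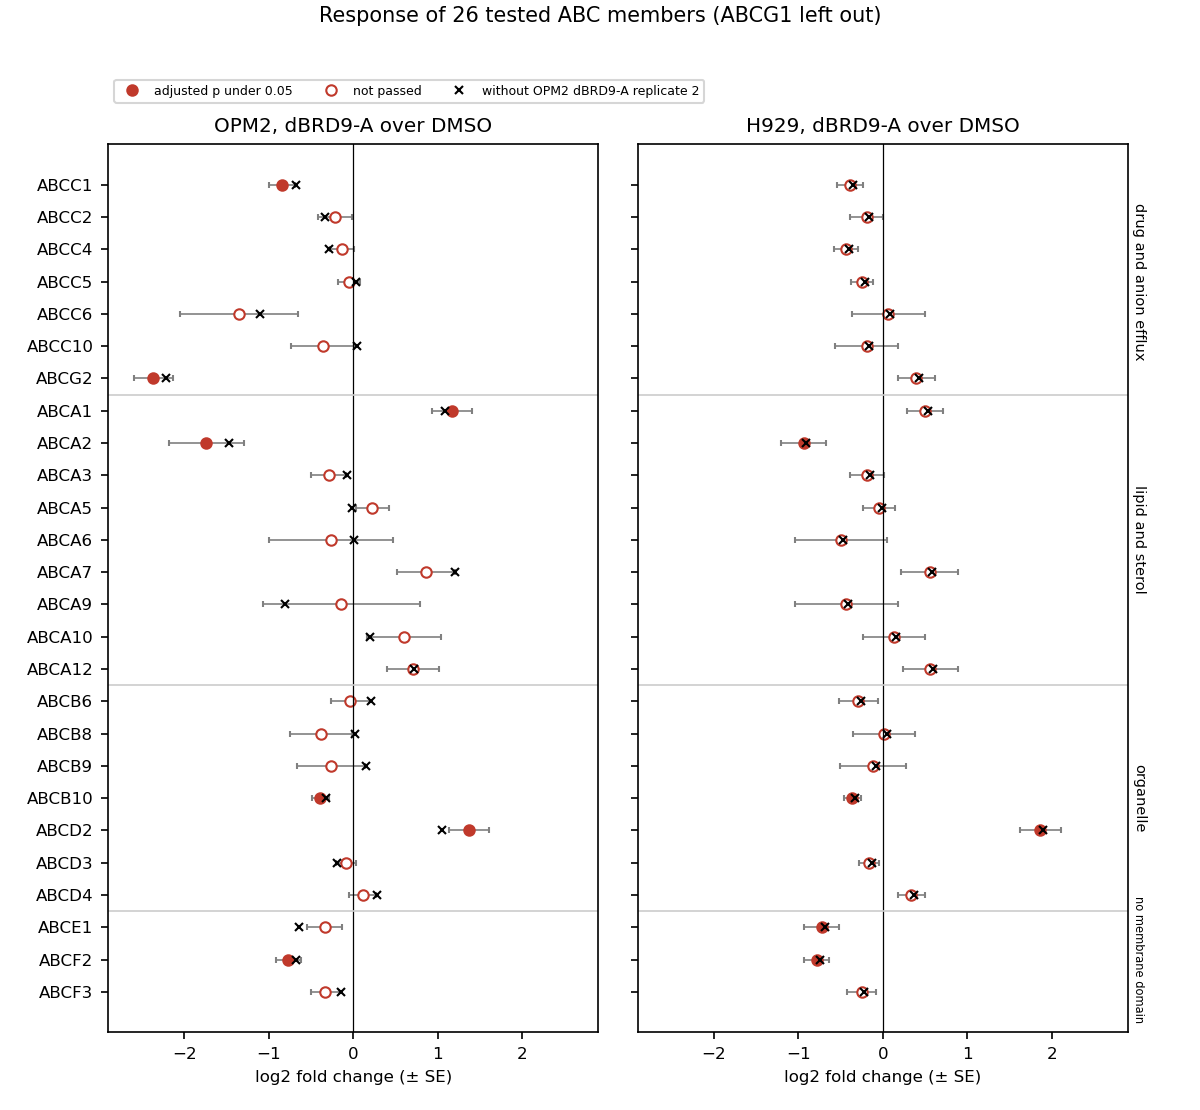
Log2 fold change of dBRD9-A over DMSO with its SE for 26 tested members by role, OPM2 in the left panel and H929 in the right, where filled circles passed the test and crosses give the value without OPM2 dBRD9-A replicate 2. ABCD2 lies at 1.37 in OPM2 and 1.86 in H929 and ABCF2 at -0.77 and -0.78, while ABCG2 lies at -2.36 in OPM2 and 0.40 in H929. ABCG1, without a count in OPM2 with DMSO, is left out.

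Among the pumps of drugs and anions, ABCG2 and ABCC1 fell in OPM2, 2 of 7 tested, and none of the 7 passed in H929. The backgrounds were 17.4% and 13.0% of all genes. Without OPM2 dBRD9-A replicate 2, 2 of the 7 passed in each line, against 31.7% and 35.7% of all genes. The counts by role here and below are to be read against these backgrounds and are too small to be results about a role. ABCG2, the breast cancer resistance protein, which pumps drugs, urate and porphyrins, had 1.57, 1.05 and 1.93 CPM in OPM2 with dBRD9-A, against 8.01, 6.18 and 9.90 with DMSO. In H929 it had 3.67, 3.77 and 3.64 CPM with dBRD9-A, against 2.76, 3.08 and 2.57 with DMSO. In OPM2 every treated library lay below every DMSO library, and in H929 every treated library lay above them. Its log2 fold change in OPM2 was -2.36 ± 0.23 (SE), a 5.15-fold lower level (edgeR adjusted p = 7.1e-05), and this call was kept in 22 of 22 alternatives. In H929 it was 0.40 ± 0.22 with edgeR adjusted p = 0.269. ABCC1, which exports glutathione conjugates and leukotriene C4, had 37.0, 24.9 and 39.8 CPM in OPM2 with dBRD9-A, against 60.9, 66.5 and 55.3 with DMSO. In H929 it had 46.4, 42.8 and 43.4 CPM with dBRD9-A, against 54.0, 60.2 and 59.3 with DMSO. The treated libraries of both lines lay below their DMSO libraries without overlap. The log2 fold change was -0.84 ± 0.16 in OPM2 (edgeR adjusted p = 0.00408) and -0.39 ± 0.15 in H929, where it did not pass (edgeR adjusted p = 0.123; -0.35 without OPM2 dBRD9-A replicate 2, where it passed). With the 6 OPM2 libraries fitted alone the OPM2 value was -0.85 and did not pass.

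ABCC4, an exporter of cyclic nucleotides and prostaglandins, had 33.4, 29.6 and 33.8 CPM in H929 with dBRD9-A, against 37.5, 49.3 and 44.4 with DMSO. Its groups did not overlap in H929, and its log2 fold change of -0.44 ± 0.15 did not pass (edgeR adjusted p = 0.0682) and passed without OPM2 dBRD9-A replicate 2 at -0.40. In OPM2 it was -0.13 ± 0.15, and -0.29 without that replicate. ABCC5, another exporter of cyclic nucleotides, had -0.05 ± 0.13 in OPM2, 0.03 without that replicate, and -0.24 ± 0.13 in H929. ABCC10, a pump that accepts taxanes, had -0.36 ± 0.37 in OPM2, where replicate 2 was at 5.26 CPM against 20.2 and 25.9 in its mates, and 0.04 without that replicate. ABCC2, a conjugate pump of hepatocytes, had -0.22 ± 0.20 in OPM2, -0.33 without that replicate, and -0.19 ± 0.20 in H929. ABCC6 had at most 45 counts in any library and near-identical pseudogene copies in the genome, so its counts are uncertain.

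**Figure D3:**
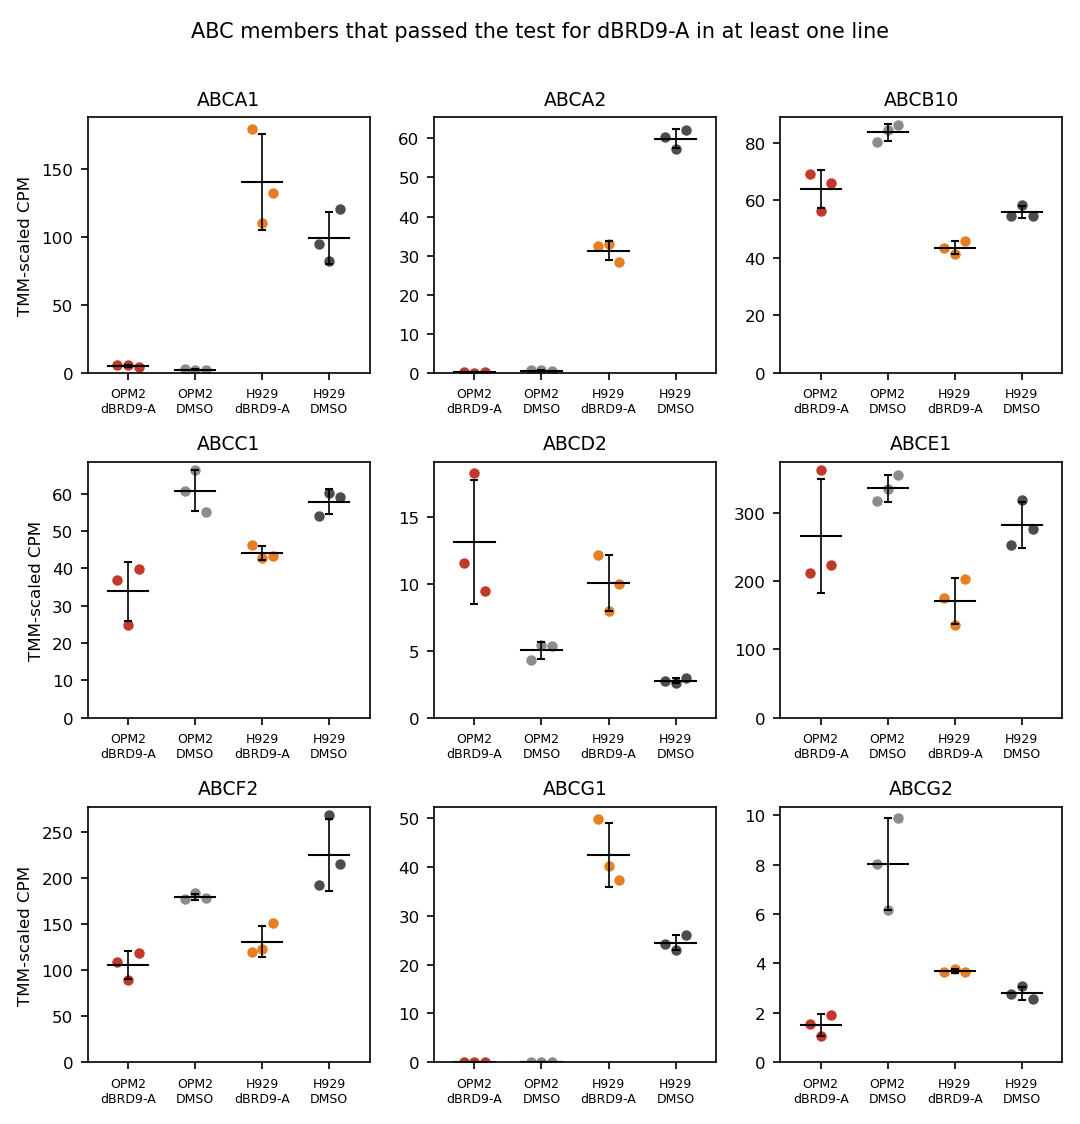
TMM-scaled CPM per library for the 9 members that passed the test in at least 1 line, where points are libraries, horizontal lines group means and bars SD (n = 3), with dBRD9-A left of DMSO for each line. ABCD2 lies above its DMSO libraries and ABCF2, ABCB10 and ABCC1 below theirs in both lines.

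Of the 10 tested lipid and sterol transporters, ABCA1 rose and ABCA2 fell in OPM2, and ABCG1 rose and ABCA2 fell in H929. ABCA1, which loads cholesterol and phospholipid onto apolipoprotein A-I, had 5.52, 5.85 and 4.30 CPM in OPM2 with dBRD9-A, against 2.97, 1.88 and 2.10 with DMSO. It had 179, 109.7 and 132 CPM in H929 with dBRD9-A, against 94.8, 82.4 and 120.03 with DMSO. The OPM2 groups did not overlap, while in H929 the lowest treated library lay below the highest DMSO library. The log2 fold change was 1.17 ± 0.23 in OPM2 (edgeR adjusted p = 0.00627; kept in 22 of 22 alternatives) and 0.50 ± 0.21 in H929 (edgeR adjusted p = 0.151; 0.53 without OPM2 dBRD9-A replicate 2, where it passed). ABCG1, which passes cholesterol to high-density lipoprotein, had 49.9, 40.3 and 37.3 CPM in H929 with dBRD9-A, against 24.2, 23.1 and 26.1 with DMSO. Every treated H929 library lay above every DMSO library. In H929 it rose by 0.80 ± 0.22 on the log2 scale (edgeR adjusted p = 0.04), and it no longer passed in 10 of 22 alternatives, such as leaving out any 1 of the OPM2 DMSO libraries or of the 6 H929 libraries (0.70 to 0.91). In OPM2 it had 4, 0 and 0 counts with dBRD9-A and 0 with DMSO.

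ABCA2, an endosomal and lysosomal lipid transporter, had 32.3, 32.98 and 28.4 CPM in H929 with dBRD9-A, against 60.2, 57.3 and 62.1 with DMSO. In OPM2 it had 0.311, 0 and 0.106 CPM with dBRD9-A, against 0.644, 0.699 and 0.402 with DMSO, which is 21, 0 and 7 counts against 41, 51 and 31. In both lines every treated library was below every DMSO library, and the OPM2 level was near the limit of detection. It fell by 0.94 ± 0.27 on the log2 scale in H929 (edgeR adjusted p = 0.0376) and by 1.74 ± 0.44 in OPM2 (edgeR adjusted p = 0.0193). The H929 call ended in 11 of 22 alternatives, among them leaving out OPM2 DMSO replicate 1 or 2 or any 1 of the 6 H929 libraries (-0.95 to -0.85), and the OPM2 call ended without OPM2 dBRD9-A replicate 3 or DMSO replicate 1 or 2 (-1.67 to -1.41) and with the OPM2 libraries alone. ABCA7, which moves phospholipids in macrophages and brain, had 85.2, 28.97 and 86.5 CPM in OPM2 with dBRD9-A, against 39.2, 33.7 and 37.9 with DMSO. It had 173, 210.5 and 132 CPM in H929 with dBRD9-A, against 142, 82.0 and 127 with DMSO. OPM2 replicate 2 lay below the DMSO libraries and its mates well above them, and in H929 the groups overlapped. ABCA7 had log2 fold changes of 0.86 ± 0.34 in OPM2 and 0.55 ± 0.34 in H929 and did not pass (edgeR adjusted p = 0.101 and 0.329), and without OPM2 dBRD9-A replicate 2 it passed in both lines, at 1.21 and 0.58. ABCA3, the surfactant lipid transporter of the lung, and ABCA5 had -0.29 ± 0.20 and 0.22 ± 0.20 in OPM2 and -0.19 ± 0.20 and -0.04 ± 0.19 in H929. Their OPM2 values were -0.07 and -0.01 without OPM2 dBRD9-A replicate 2. ABCA6, ABCA9, ABCA10 and ABCA12 had at most 96 counts in any library and did not pass in either line.

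Of the 9 organelle transporters, ABCD2 rose and ABCB10 fell in both lines. ABCD2, which imports very-long-chain fatty acyl-CoA into peroxisomes for oxidation, had 11.5, 18.4 and 9.49 CPM in OPM2 with dBRD9-A, against 4.30, 5.41 and 5.40 with DMSO. In H929 it had 12.2, 7.996 and 9.98 CPM with dBRD9-A, against 2.76, 2.58 and 2.96 with DMSO. Every treated library lay above every DMSO library in both lines, and the highest was OPM2 replicate 2. ABCD2 rose by 1.37 ± 0.24 on the log2 scale in OPM2 and by 1.86 ± 0.24 in H929, 2.59-fold and 3.63-fold (edgeR adjusted p = 0.00275 and 0.000819), and passed in 22 of 22 alternatives in each line. Without OPM2 dBRD9-A replicate 2 the OPM2 value was 1.05. ABCD3, which imports branched-chain and bile acid precursors into peroxisomes, had -0.09 ± 0.12 in OPM2, -0.19 without that replicate, and -0.16 ± 0.12 in H929.

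ABCB10, a mitochondrial inner membrane transporter needed for heme synthesis in mouse red cell precursors, had 69.3, 56.4 and 66.1 CPM in OPM2 with dBRD9-A, against 80.3, 84.5 and 86.1 with DMSO. In H929 it had 43.5, 41.4 and 45.8 CPM with dBRD9-A, against 54.6, 58.3 and 54.7 with DMSO. The groups did not overlap in either line, and the differences were small, with a fall of 0.39 ± 0.10 in OPM2 and of 0.36 ± 0.10 in H929 on the log2 scale (edgeR adjusted p = 0.0246 and 0.0403). The OPM2 call ended in 6 of 22 alternatives, among them leaving out any 1 of the OPM2 DMSO libraries (-0.42 to -0.37). The H929 call ended in 14 of 22, among them any 1 of the OPM2 DMSO libraries or of the 6 H929 libraries (-0.37 to -0.29). ABCB6, a porphyrin transporter, had -0.04 ± 0.23 in OPM2, 0.21 without replicate 2 of the treated libraries, and -0.29 ± 0.23 in H929. ABCB8 of the mitochondrial inner membrane had -0.38 ± 0.37 in OPM2, and 0.02 without replicate 2. The lysosomal members ABCB9, a peptide transporter, and ABCD4, which releases vitamin B12, had -0.26 ± 0.40 and 0.11 ± 0.16 in OPM2 and -0.11 ± 0.39 and 0.34 ± 0.16 in H929. Without OPM2 dBRD9-A replicate 2, ABCB9 was at 0.15 in OPM2, the opposite sign, and ABCD4 passed in both lines, at 0.28 in OPM2 and 0.37 in H929.

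Of the 3 tested proteins without a membrane domain, ABCF2 fell in both lines and ABCE1 fell in H929. ABCF2 had 109, 89.5 and 119 CPM in OPM2 with dBRD9-A, against 177, 183 and 179 with DMSO. In H929 it had 119.5, 123 and 151 CPM with dBRD9-A, against 192, 269 and 215 with DMSO. Every treated library lay below every DMSO library in both lines. The fall was 0.77 ± 0.15 in OPM2 and 0.78 ± 0.15 in H929 on the log2 scale (edgeR adjusted p = 0.00526 and 0.00565), and it was called in 22 of 22 alternatives in each line. ABCE1 had 175, 135 and 202 CPM in H929 with dBRD9-A, against 252, 318 and 276 with DMSO. In OPM2 it had 212, 363 and 223 CPM with dBRD9-A, against 317, 335 and 355 with DMSO. The H929 groups did not overlap, and in OPM2 replicate 2 lay above all DMSO libraries while its mates lay below them. ABCE1 fell by 0.72 ± 0.20 in H929 (edgeR adjusted p = 0.0363), and it no longer passed in 10 of 22 alternatives, such as leaving out any 1 of the OPM2 DMSO libraries, H929 dBRD9-A replicate 1 or 2 or any 1 of the H929 DMSO libraries (-0.76 to -0.54). In OPM2 it had -0.34 ± 0.20 (edgeR adjusted p = 0.268) and passed without replicate 2 at -0.64. ABCF3, whose yeast relative Gcn20 acts in translational control, had 56.7, 59.2 and 61.5 CPM in H929 with dBRD9-A, against 68.1, 74.5 and 68.6 with DMSO, and -0.34 ± 0.17 in OPM2 and -0.25 ± 0.17 in H929, neither of which passed. Without OPM2 dBRD9-A replicate 2 it passed in H929 at -0.22 and was at -0.14 in OPM2. In a current annotation 278 exon bases of ABCE1, of a transcript of 4191 bases, overlap those of ANAPC10 on the other strand, and with no strand setting stated for the counting, reads in that stretch cannot be told apart.

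By role, the summed TPM of the proteins without a membrane domain were 110.5 ± 9.97 in OPM2 with dBRD9-A and 142 ± 5.28 with DMSO, and 91.8 ± 12.9 in H929 with dBRD9-A and 132 ± 16.7 with DMSO (SD, n = 3). The treated and DMSO ranges of this class did not overlap in either line, and ABCE1 and ABCF2 carried most of it. The pumps of drugs and anions summed to 20.7 ± 3.95 TPM in OPM2 with dBRD9-A and 26.9 ± 1.60 with DMSO, and to 27.5 ± 1.41 in H929 with dBRD9-A and 31.0 ± 2.80 with DMSO. Their ranges did not overlap in OPM2, and in H929 they did. The lipid transporters summed to 64.3 ± 9.11 TPM in H929 with dBRD9-A and 46.5 ± 6.96 with DMSO, without overlap, and to 19.1 ± 7.35 in OPM2 with dBRD9-A and 13.9 ± 0.43 with DMSO, where replicate 2 lay below all DMSO libraries. The organelle transporters summed to 105.7 ± 20.3 TPM in OPM2 with dBRD9-A and 105.3 ± 3.68 with DMSO, and to 93.2 ± 2.93 in H929 with dBRD9-A and 87.9 ± 5.83 with DMSO. Both pairs overlapped. The sums are descriptions, since a few members decide each of them.

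In DMSO, 14 of 29 tested members (48.3%) passed the edgeR test with a difference of 1 log2 unit or more, 12 higher and 2 lower in H929 than in OPM2, against a background of 36.3% of all genes (21.4% higher, 15.0% lower). Without OPM2 dBRD9-A replicate 2 it was again 12 higher and 2 lower, against 37.7% of all genes (21.6% higher, 16.1% lower). Of the lipid and sterol transporters 8 of 10 were higher in H929, and their median log2 difference was 1.92, or 1.85 without ABCG1, against 0.05 over all genes. ABCG1, ABCA6, ABCA9 and the anion pump ABCC6 had at most 4, 9, 10 and 11 counts in any OPM2 library. They passed the low-count filter only through H929, so they could hardly come out other than higher there. The counts and medians above include such members and are partly set by that filter. ABCG1 had 24.2, 23.1 and 26.1 CPM in H929 with DMSO and no count in any OPM2 DMSO library, at least 1741-fold higher in H929 against a floor of 3 counts over the group. ABCA2 was at 60.2, 57.3 and 62.1 CPM in H929 and at 0.644, 0.699 and 0.402 in OPM2, a log2 difference of 6.69 ± 0.35 (edgeR adjusted p = 9.08e-09). ABCA1 was at 94.8, 82.4 and 120.03 CPM in H929 and 2.97, 1.88 and 2.10 in OPM2, a log2 difference of 5.42 ± 0.26, 42.9-fold. For these 3 genes the lowest H929 library stood far above the highest OPM2 library. ABCA7 (1.66), ABCA5 (1.56), ABCA10 (1.99), ABCA6 (1.85) and ABCA9 (2.48) were also higher in H929, the last 2 on at most 33 counts in a library. The ABCA6 call ended without OPM2 DMSO replicate 1 or H929 DMSO replicate 3, at 1.58 and 1.46. ABCA5 and ABCA10 share exon sequence on the same strand, so their reads are not fully separate.

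Among the other roles, ABCC5 (1.10 ± 0.13) and the low and uncertain ABCC6 (2.14 ± 0.49) were higher in H929, and ABCG2 was lower, at 2.76, 3.08 and 2.57 CPM in H929 and 8.01, 6.18 and 9.90 in OPM2 with DMSO (-1.52 ± 0.22, edgeR adjusted p = 6.27e-05). ABCD3 was also lower, with 19.9, 22.2 and 22.2 CPM in H929 and 71.5, 72.6 and 76.5 in OPM2 (-1.78 ± 0.12, edgeR adjusted p = 8.68e-08). ABCB9 was at 90.4, 129 and 94.9 CPM in H929 and 10.6, 11.1 and 11.004 in OPM2 (3.26 ± 0.43). Its exons overlap those of ARL6IP4 and OGFOD2 on the other strand, so without the strand setting its counts may hold reads of those genes. None of the 3 tested proteins without a membrane domain reached the threshold, with 0.33 ± 0.15 for ABCF2, 0.56 ± 0.17 for ABCF3 and -0.25 ± 0.20 for ABCE1.

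**Figure D4:**
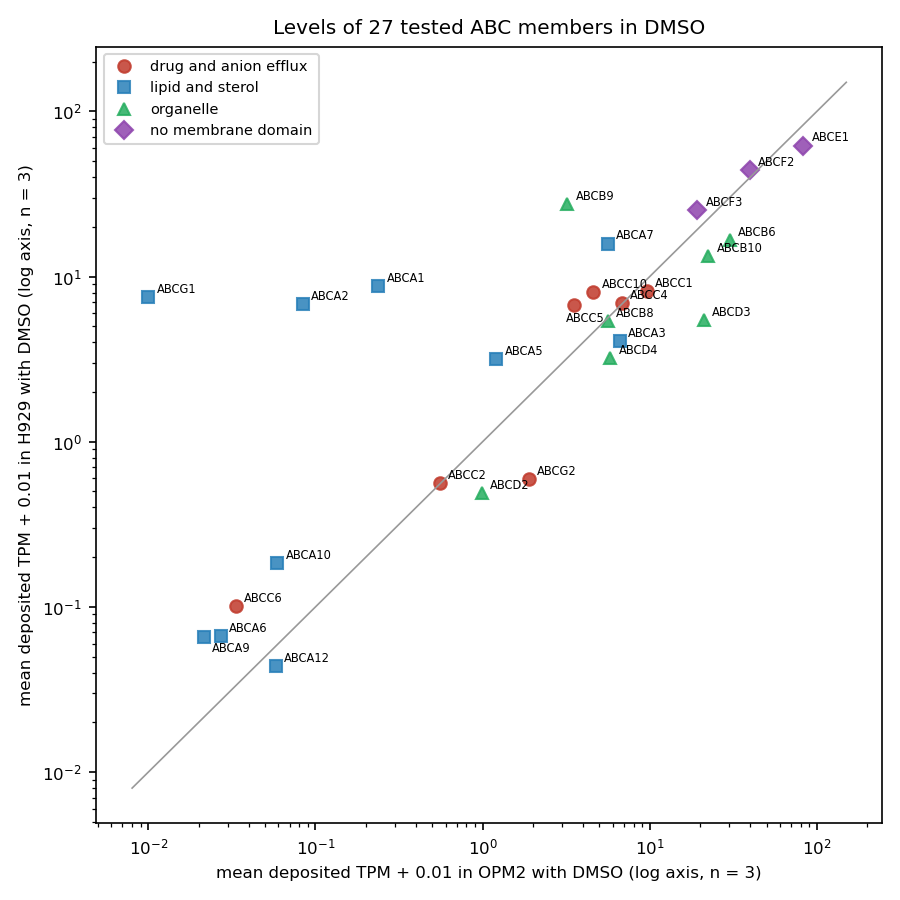
Mean deposited TPM plus 0.01 of 27 tested members with DMSO, H929 on the vertical and OPM2 on the horizontal axis (both log axes, n = 3), with shapes for the role and the line of equal levels. ABCG1, ABCA2 and ABCA1 lie far above the line, and ABCD3 and ABCG2 below it.

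The response to dBRD9-A differed between the lines for 1 of 29 members (3.4%), ABCG2, against a background of 0.579% of all genes. Its difference, H929 minus OPM2, was 2.76 ± 0.31 on the log2 scale (edgeR adjusted p = 0.00347), and it passed in 21 of 21 alternatives. The count was again 1 member without OPM2 dBRD9-A replicate 2, against 3.04% of all genes (1.63% higher). With dBRD9-A the lines stood at 3.67, 3.77 and 3.64 CPM in H929 and 1.57, 1.05 and 1.93 in OPM2, the opposite order to that in DMSO. For ABCA1, ABCC1, ABCE1 and ABCD2 the differences were -0.67 ± 0.32, 0.45 ± 0.22, -0.39 ± 0.29 and 0.49 ± 0.33, and none passed, so a call in a single line does not show that the lines differ for these genes. The difference without OPM2 dBRD9-A replicate 2 was -0.05 for ABCE1 and 0.85 for ABCD2, where edgeR adjusted p = 0.0658. For ABCF2 and ABCB10 the differences were -0.01 ± 0.21 and 0.03 ± 0.15.

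Genes that work with the members were counted in lists by pathway, to be read against the backgrounds of 17.4% of all genes called in OPM2 and 13.0% in H929, or 31.7% and 35.7% without OPM2 dBRD9-A replicate 2. Of 11 genes of cholesterol efflux and liver X receptor action, 9 were tested, none rose and SCD, a lipid desaturase, fell in both lines, by 1.13 in OPM2 and 0.85 in H929 on the log2 scale. Without that library, 3 genes rose in OPM2 and 1 in H929, and the list's median in OPM2 was 0.18, against -0.14 with it. Of 20 peroxisome genes, all tested, PEX5, the import receptor, fell by 1.27 in OPM2 and had -0.79 in H929 (edgeR adjusted p = 0.0604), and PEX11A, a division factor, rose by 0.98 in H929 and had 0.42 in OPM2. The list's medians were -0.07 and 0.06, against 0.03 and -0.0019 over all genes, and without that library 4 genes passed in OPM2 and 7 in H929. Of 19 tested genes of heme and iron-sulfur synthesis 2 rose and 3 fell in OPM2, among them CPOX (-0.54), a late enzyme of heme synthesis. In H929 1 rose and 2 fell, GLRX5 (-0.49) and SLC25A37 (-0.40), the latter close to the threshold (edgeR adjusted p = 0.0452). ALAD, an early enzyme of heme synthesis, rose by 0.48 in each line, and by 0.32 in OPM2 without that replicate. Without it 4 of the 19 rose and 7 fell in OPM2, and 2 rose and 4 fell in H929. Of 12 genes of vitamin B12 handling 1 rose and 2 fell in each line, with MMACHC and MTRR lower in both (-0.57 and -0.50 in OPM2, -0.57 and -0.54 in H929). MMAA was higher in OPM2 (0.78, or 0.46 without that replicate). TCN2, the vitamin's carrier in blood, was higher in H929 (1.29), close to the threshold (edgeR adjusted p = 0.0486).

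Of 13 genes of ribosome recycling and rescue, PELO, a partner of ABCE1 in freeing stalled ribosomes, fell by 0.43 in OPM2 and 0.45 in H929, and EIF1AX and GSPT1 fell in H929 by 0.56 and 0.55. With all libraries 1 of the 13 fell in OPM2 and 3 in H929, against 7.34% and 5.67% of all genes. None rose in either line, against 10.1% and 7.33% of all genes. Without OPM2 dBRD9-A replicate 2, 6 fell in each line and again none rose. In that fit 15.6% of all genes fell in OPM2 and 16.5% in H929. Counts in so short a list are no result about the list as a whole. Of 8 tested genes of leukotriene and prostaglandin action, 2 rose and 2 fell in OPM2 and 3 rose and 1 fell in H929. SLCO2A1, a prostaglandin uptake carrier, averaged 5.01 ± 2.27 CPM in OPM2 with dBRD9-A and 0.92 ± 0.53 with DMSO, and 2.24 ± 0.43 in H929 with dBRD9-A and 0.32 ± 0.13 with DMSO (SD, n = 3). It rose by 2.46 and 2.79 on the log2 scale, while PTGES2, a prostaglandin synthase, fell by 0.91 and 0.85. CYSLTR1, the receptor for the cysteinyl leukotrienes derived from the ABCC1 substrate leukotriene C4, rose by 5.12 in OPM2 and 1.03 in H929. Its level in OPM2 with DMSO was near the limit of detection, so the size of the OPM2 change is uncertain. Of 21 tested genes of xenobiotic and glutathione metabolism 1 rose and 1 fell in OPM2, ALOX5AP (2.46) and TXNRD1 (-0.37), and 2 rose in H929, ALOX5AP (1.502) and ARNT (0.35). In the fit without OPM2 dBRD9-A replicate 2, 22 were tested, of which 2 rose and 2 fell in OPM2 and 7 rose and 3 fell in H929. In the fit with all libraries ALOX5AP, which presents arachidonic acid to the enzyme that starts leukotriene synthesis, rose in both lines. Of the potassium channel subunits that pair with ABCC8 and ABCC9, KCNJ11 was tested and did not pass, at 0.02 in OPM2 and 0.28 in H929.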

How the data were processed

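RNA of 12 libraries of OPM2 and H929 was analysed. The remaining 18 of 30 samples (hairpins, polysomes) were not analysed here. STAR, featureCounts, hg19 and GRCh37 are named without versions, per the submitters' processing notes. Per the labels' protocols the kit is stranded and selects poly(A) RNA. Per the file headers 51780 rows of RefSeq transcripts, some of them numbered copies of a transcript, have 3 values each, in counts, FPKM and TPM. The deposited counts are whole numbers without normalisation, and rows of a gene share reads. The deposited FPKM values, scaled by length and library by the authors, served only to recover lengths. The deposited TPM values were used for levels between genes.

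Counts were filtered with filterByExpr by group, scaled with TMM and tested with edgeR 4.0.16 in R 4.3.3, a quasi-likelihood test over all 16408 genes with a mean per group and 8 residual degrees of freedom, adjusted by Benjamini-Hochberg. CPM values carry the TMM factors. The comparison of the lines also asked for a change of 1 log2 unit or more. Code was tested on simulated data. The alternatives used RLE factors, library size, DESeq2 1.42.0, limma-voom 3.58.1 with library weights, other low-count filters, the compared groups alone, a replicate block, sums over transcripts and each library left out, and, added after the data were seen, a correction for a smooth trend with the GC content of transcripts. The members and lists were chosen with earlier results of these data known. Members were named where they passed a test or were among the 3 highest of their role by mean TPM, those outside the test by their counts, and genes of the related lists as the up to 3 called genes with the largest change per line. PEX5 and PTGES2 in H929, PEX11A in OPM2 and the remaining members were added after their values were seen. GC content came from GENCODE 29 transcripts, for 98.07% of the genes tested. Exon overlaps came from the same annotation, which is of another build, so names and some lengths of overlap are given and no coordinates. Values of some tested genes are not reported here, and counts and sums cover all genes of a list.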

Additional observations from a re-analysis of the deposited data

Results flagged for a closer look

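The response to dBRD9-A differed between the lines, by the edgeR interaction test, for ABCG2 and for 2 genes of the leukotriene and prostaglandin list. For ABCG2 the response in H929 minus that in OPM2 was 2.76 on the log2 scale. For CYSLTR1, a receptor for leukotrienes, the difference was -4.09, with means of 101.1 ± 27.99 CPM in treated H929 and 49.6 ± 9.33 in H929 with DMSO, and 5.85 ± 2.14 in treated OPM2 and 0.16 ± 0.06 in OPM2 with DMSO. The last of these is near the limit of detection, so the size of the CYSLTR1 difference is uncertain. For PTGER4, a prostaglandin E2 receptor, it was 2.28, with means of 0.98 ± 0.12 CPM in treated H929 and 0.28 ± 0.03 in H929 with DMSO, and 10.3 ± 1.35 in treated OPM2 and 14.5 ± 1.25 in OPM2 with DMSO (SD, n = 3).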

How the results depend on the processing

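The number of members that passed with dBRD9-A depended on the fit in both lines. In OPM2, where 7 passed, it was 4 with the OPM2 libraries alone, 12 with limma-voom and 11 with the GC trend removed, and it ran from 5 to 11 when a library was left out, with 11 without OPM2 dBRD9-A replicate 2. In H929, where 6 passed, it was 12 with the H929 libraries alone, 13 with limma-voom, 11 with the GC trend removed and 3 with the sum over transcripts, and it ran from 2 to 13 when a library was left out, with 13 without OPM2 dBRD9-A replicate 2. The cause was not tested, apart from the library left out. With the replicate number as a block 3 members passed in H929. The main fit did not pair libraries by number. Deviations of same-numbered libraries within a line correlated at -0.177 to 0.161. With 3 libraries per group and deviations that in some libraries follow GC content, this cannot decide whether same-numbered libraries belong together. The difference of responses stayed at 1 member and the lines in DMSO at 13 or 14 when a library was left out. Of 2439 alternative values over 22 settings, 2221 kept their direction and their side of the threshold, 63 lost the call, 42 gained it, 113 values that had not passed changed sign and 0 called values did. The 17 members outside the test had at most 13 counts in any library, and ABCA2 had 0 to 51 in the OPM2 libraries. The part of depth in these counts was not tested.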
